A study of Drosophila melanogaster with 19 samples.

Results

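The 8 genes described here are the 6 actins of Drosophila and a pair of actin-related genes, measured as RNA in S2R+ cells after depletion of subunits of the dREAM complex. They are Act5C, Act42A, Act57B, Act79B, Act87E, Act88F, Arp53D and Arp87C, chosen by gene name from the 15020 genes of the expression table. Their 16 transcript models, of 37161 in the table, were summed to 1 value per gene. Arp87C stands in the table under its other name Arp1, and the other 7 were found under their own symbols.

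S2R+ is a cultured line from Drosophila embryos with features of hemocytes, the blood cells of the fly. At 25 °C and over 4 days, cells took up double-stranded RNA (dsRNA) against mip40, mip120 or mip130 (2 libraries each), against E2F2 (1 library), or, as the control, against GFP (2 libraries). Every group therefore received dsRNA, and no library came from untreated cells. mip40, mip120, mip130 and E2F2 are subunits of dREAM, a chromatin complex of retinoblastoma-family, E2F and Myb-associated proteins that represses many genes outside their own tissue. Whether the replicates were separate cultures is not stated in the labels. The p-values therefore reflect only the spread between these libraries, which may be technical.

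Actin is the monomer of the thin filaments that shape cells and that drive contraction in muscle. Flies carry a cytoplasmic pair of actin genes used in most cells and a set of muscle actins, each used in its own muscles, and all encode nearly the same protein. Actin-related proteins share the actin fold but do other work, in filament branching, in the dynactin complex that couples cargo to dynein, in chromatin remodelling and, for Arp53D, in the male germ line.

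Levels are FPKM as deposited, which are fragments scaled to transcript length and library size, so levels of different genes can be set side by side. The number of reads behind each value is unknown, no interval for counting error can be given, and an exact 0 can be a failed estimate. Differences are on the log2(FPKM + 1) scale with their standard error (SE), from limma over the 7835 genes with at least 1 FPKM in at least 2 libraries, and a gene was called where its p, adjusted over all of these by the Benjamini-Hochberg method, was under 0.05. The coding sequences of the actins are nearly identical, so the split of reads between them is uncertain. No source used here gives the strand setting of the libraries, so reads from a gene and from one that overlaps it cannot be told apart, which touches Act57B, Act87E and Arp87C.

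The targeted RNAs were lowest in their own libraries. The mip40 RNA stood at 1.45 and 1.12 FPKM in mip40 RNAi, against 34.0 and 31.1 in GFP, and E2f2 stood at 2.54 in E2F2 RNAi, against 25.8 and 27.9. The mip130 RNA stood at 5.00 and 4.46 FPKM in mip130 RNAi, against 27.7 and 29.8 in GFP. The mip120 RNA was the least depleted, at 28.5 and 30.0 FPKM in mip120 RNAi, against 52.5 and 45.7 in GFP, which left 59.6% of the control mean. Replicates correlated across genes at r between 0.967 and 0.985, and the most abundant single transcript held between 2.52% and 16.1% of a library's summed FPKM. Of 15 hemocyte markers, 8 were at 1 FPKM or more in all 9 libraries, among them srp, a hemocyte transcription factor, at 78.7 to 118 FPKM. Another 5 were under 1 FPKM in all 9 libraries, namely Hml, NimC1, lz, PPO1 and gcm.

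Of the 8 genes, the cytoplasmic actins and Arp87C were expressed in every library. Arp53D reached 1 FPKM only in the mip120, mip130 and E2F2 libraries, and the 4 muscle actins stayed near 0 throughout. The rise of Arp53D in mip120, mip130 and E2F2 RNAi was the largest change among them. Act5C rose by less than 0.5 log2 units in mip120 and mip130 RNAi, and Arp87C fell slightly in mip120 RNAi. The 4 genes that could be tested were Act5C, Act42A, Arp53D and Arp87C, and the 4 muscle actins missed the filter.

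**Figure D1:**
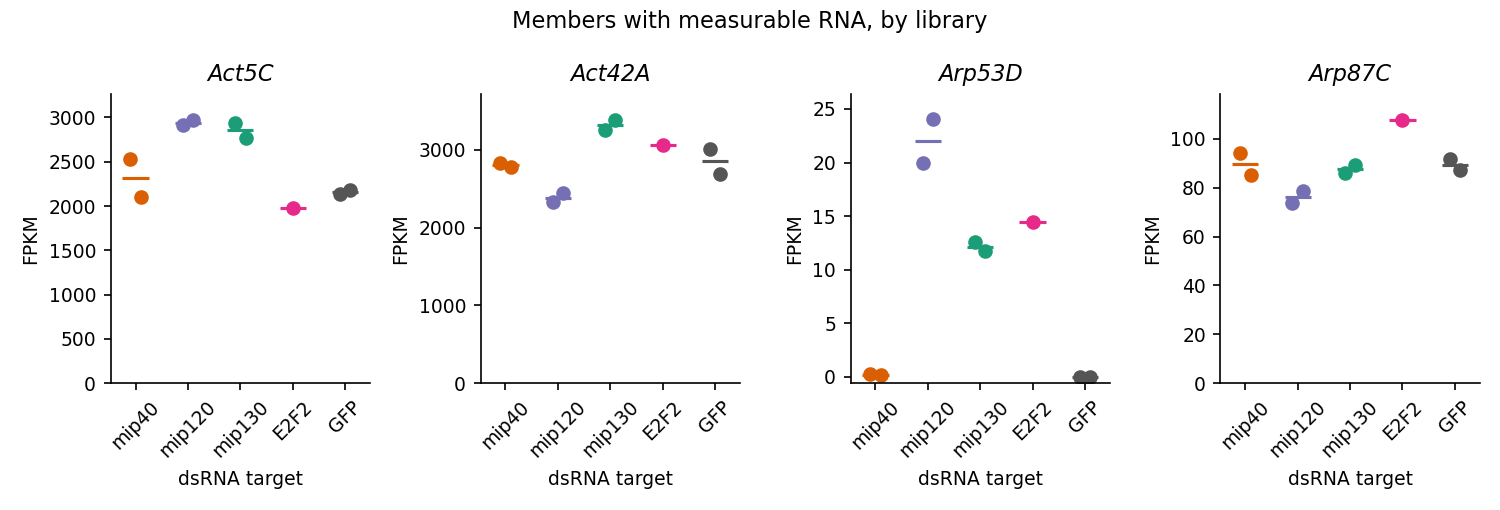
Levels of the 4 measurable genes, in FPKM, with 1 point per library, grouped by dsRNA target, and a line at the group mean. Arp53D is at 19.9 and 24.0 FPKM in mip120, 12.5 and 11.8 in mip130 and 14.4 in E2F2 RNAi, below 1 in mip40 RNAi and 0 in GFP, while the other 3 genes vary within a narrow range.

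Arp53D encodes an actin-related protein known from the testis. It was listed at 0 in both GFP libraries. In mip40 RNAi it stood at 0.256 and 0.120 FPKM, in mip120 RNAi at 19.9 and 24.0, in mip130 RNAi at 12.5 and 11.8, and in the E2F2 RNAi library at 14.4. The mip120, mip130 and E2F2 libraries all lay far above the mip40 and GFP libraries, with no overlap.

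Against GFP, Arp53D was called higher in mip120 RNAi (limma adjusted p = 4.5e-06), in mip130 RNAi (limma adjusted p = 6.9e-06) and in E2F2 RNAi (limma adjusted p = 4.1e-05). With annotated transcripts only, a setting that leaves out the upstream-start models described below, the mip120 difference was 0.000744 (limma adjusted p = 1). By the size of its rise on the log2(FPKM + 1) scale it ranked 10 of 7835 genes in mip120 RNAi, 19 in mip130 RNAi and 13 in E2F2 RNAi. No fold is given against a control listed at 0, and these 3 comparisons share the same GFP libraries. Because the filter asked for 1 FPKM in any 2 libraries, Arp53D entered the test through the RNAi libraries where it was high, and a gene that enters so had to differ.

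In mip40 RNAi the difference of Arp53D from GFP did not pass (limma adjusted p = 0.253), though it did so with a pseudocount of 0.1 in place of 1 (limma adjusted p = 0.0148). Set directly against mip40 RNAi, Arp53D was higher by 4.27 ± 0.12 log2 units in mip120 RNAi (SE, limma adjusted p = 7.2e-06) and by 3.47 ± 0.12 in mip130 RNAi (SE, limma adjusted p = 2.0e-05). The limit from the filter holds here too, because Arp53D was under 1 FPKM in both mip40 libraries. It entered the test only through the libraries where it was high. The mip40 RNA was the most depleted of the 4 targets, at 3.96% of its control mean. Whether the depth of a knockdown bears on the level of Arp53D was not tested. With annotated transcripts only, the difference between mip120 and mip40 RNAi was -0.0809 (limma adjusted p = 0.918).

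Arp53D was lower in mip130 than in mip120 RNAi, at a mean of 12.1 ± 0.560 against 22.0 ± 2.92 FPKM (SD, n = 2 each), a difference of -0.80 ± 0.12 log2 units (SE, limma adjusted p = 0.0154). That call was lost when any mip120 or mip130 library was left out, with limma adjusted p between 0.0549 and 0.118 and differences between -0.93 and -0.67. It was also lost with a pseudocount of 0.1 (limma adjusted p = 0.083) and with only the groups compared (limma adjusted p = 0.0542). With annotated transcripts only the difference had the opposite sign, at 2.10 (limma adjusted p = 0.0495). The single E2F2 library lay between the mip130 and the mip120 libraries. It was above the mean of the 3 mip groups by 1.12 ± 0.13 log2 units (SE, limma adjusted p = 0.0022), a mean that takes in the mip40 libraries near 0.

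The Arp53D RNA was divided among 3 transcript models on the plus strand of chromosome 2R, in the coordinates of the table. No source used here gives its genome build. A new model opened with a first exon at 2R:12661675-12661854, another started 1 bp downstream, and the annotated transcript had its first exon at 2R:12661811-12661854, 136 bp downstream of the first. All 3 first exons end at the same base, so the annotated first exon of 44 bp lies within the new one of 180 bp. The table gives no other exons of these models, and the split between them is the estimate of the authors' software.

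In mip120 RNAi nearly all Arp53D RNA was assigned to the upstream start, with 19.9 and 24.0 FPKM there and under 0.001 FPKM at the annotated start. In mip130 RNAi the upstream starts held 11.0 and 5.54 FPKM and the annotated start 1.54 and 6.22 FPKM. In the E2F2 RNAi library they held 6.09 and 8.36 FPKM. The upstream share was thus 100.0% in both mip120 libraries, 87.7% and 47.1% in mip130 RNAi and 42.2% in E2F2 RNAi. The mip130 replicates differed far more in this share than in their gene totals, and no test was made of it.

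**Figure D2:**
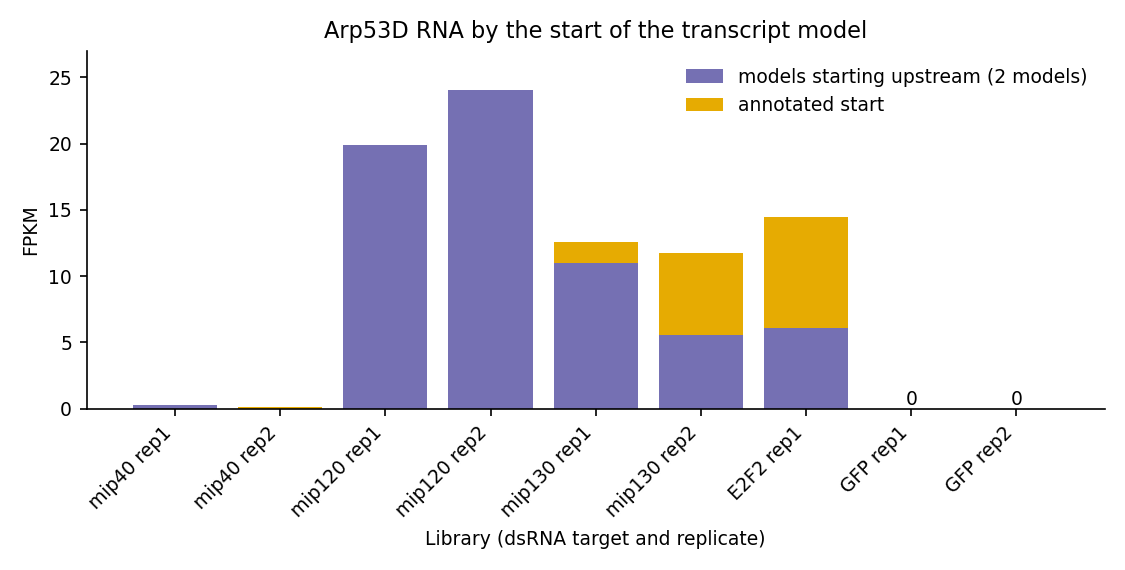
Arp53D RNA in each library, in FPKM, stacked by the start of the transcript model (2 new models that start upstream, and the annotated start). The mip120 bars are all upstream, the mip130 replicates split differently at nearly the same total, and both GFP libraries are 0.

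The gene nearest to Arp53D is Sod2, the mitochondrial manganese superoxide dismutase, which starts 235 bp away from the upstream start of Arp53D and is transcribed in the opposite direction. Sod2 stood at 150 and 139 FPKM in mip40 RNAi, 153 and 183 in mip120 RNAi, 181 and 163 in mip130 RNAi and 128 in E2F2 RNAi, against 142 and 153 in GFP. The mip120 and mip130 libraries lay above both GFP libraries and the E2F2 library below them, by small margins, and the mip40 libraries overlapped them. Sod2 passed the test in none of the 8 comparisons by limma, with adjusted p between 0.0678 and 0.901. Its largest difference from GFP was 0.22 ± 0.10 log2 units in mip130 RNAi (SE, limma adjusted p = 0.134).

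Few genes shared the exact pattern of Arp53D, for which the cut-offs were set after its values were seen. Of 4308 genes listed at 0 in both GFP libraries, 3 reached 1 FPKM in every mip120, mip130 and E2F2 library, namely Arp53D, CG31373 and CG5538. Of these, Arp53D and CG31373 were under 1 FPKM in both mip40 libraries. A wider group of 22 genes was under 1 FPKM in all GFP and mip40 libraries and at 1 or more in all of the others.

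By Pearson's r on log2(FPKM + 1) over the 9 libraries, the tested genes most like Arp53D were qtc (0.993), CG3121 (0.990), CG31373 (0.987), CG10307 (0.985) and Seipin (0.978). These values describe 9 libraries that fall into groups, and carry no test. Seipin, which acts in the formation of lipid droplets, was the most abundant of the 5, at 5.86 and 6.12 FPKM in mip40 RNAi, 24.8 and 26.0 in mip120 RNAi, 14.9 and 15.6 in mip130 RNAi and 17.0 in E2F2 RNAi, against 3.57 and 3.79 in GFP. Like Arp53D it was highest in mip120 RNAi, but it was expressed in control cells. The same r with Arp53D was 0.62 for Act5C, -0.08 for Act42A and -0.24 for Arp87C.

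Other genes of the testis and germ line were examined beside Arp53D. Of 32 genes known from the testis, 23 were under 1 FPKM in all libraries, 12 of them listed at 0 in all, and 6 were at 1 FPKM or more in all, GFP included. Those at 0 took in the sperm chromatin and tail genes Mst87F, Mst35Ba and Mst35Bb and the spermatocyte regulator comr. Of the 9 tested against GFP, 4 were higher and 0 lower in mip40 RNAi, and 5 higher and 0 lower in mip120 RNAi. In mip130 RNAi 5 were higher and 1 lower, and in E2F2 RNAi 3 higher and 1 lower. Over all genes tested, 9.2%, 36.5%, 36.2% and 12% were called in mip40, mip120, mip130 and E2F2 RNAi. Among the 9, topi, vis and Prosbeta2R2 were under 1 FPKM in both GFP libraries. They entered the test only through RNAi libraries where they were high, vis only through mip40 RNAi, so these counts depend in part on the filter. The summed level of the list was 109 to 116 FPKM in mip40, 112 to 122 in mip120, 109 to 110 in mip130 and 112 in E2F2 RNAi, against 91.4 to 95.7 in GFP. Most of that sum came from genes expressed in control cells. In replicate 1 of GFP, gdl, cdi, bol and mia stood at 25.6, 20.8, 17.8 and 15.7 FPKM. Whether these genes and Arp53D moved for a shared reason was not tested.

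Among all 7835 genes, 9.2% were called in mip40 RNAi against GFP (5.69% higher and 3.51% lower) and 36.5% in mip120 RNAi (17.6% higher and 18.9% lower). The shares were 36.2% in mip130 RNAi (19.3% higher and 16.9% lower) and 12% in E2F2 RNAi (9.28% higher and 2.72% lower). Of the 4 tested actin and actin-related genes, limma called 0 in mip40 RNAi, where 0 also had an unadjusted p under 0.05. It called 2 higher and 1 lower in mip120 RNAi, 2 higher in mip130 RNAi and 1 higher in E2F2 RNAi. With so few genes tested, these counts are a description and stand beside a background in which many genes were called in mip120 and mip130 RNAi.

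In the testis list, topi, a regulator of spermatocyte transcription, was at 2.61 and 2.72 FPKM in mip40 RNAi, 3.32 and 3.09 in mip120 RNAi, 4.23 and 4.23 in mip130 RNAi and 1.77 in E2F2 RNAi, against 0.970 and 0.717 in GFP. It passed in mip40 RNAi (0.99 ± 0.11 log2 units, SE, limma adjusted p = 0.0034), a test it entered only through RNAi libraries where it was high. Arp53D passed there only with a pseudocount of 0.1. Prosbeta2R2, a proteasome subunit gene of the testis, was listed at 0 in both GFP libraries like Arp53D, and stood at 1.18 and 0.00592 FPKM in mip40 RNAi, 1.21 and 2.32 in mip120 RNAi, 5.44 and 4.37 in mip130 RNAi and 0.0964 in E2F2 RNAi. It was highest in mip130 RNAi and near 0 in E2F2 RNAi, unlike Arp53D. Of the 8 tested germline markers, 4 were higher and 0 lower in mip40 RNAi, and 6 and 2 in mip120 RNAi. In mip130 RNAi 6 were higher and 1 lower, and in E2F2 RNAi 2 and 0. Over all genes tested, 9.2%, 36.5%, 36.2% and 12% were called in mip40, mip120, mip130 and E2F2 RNAi. Among these markers, vas, nos, piwi and zpg were under 1 FPKM in both GFP libraries. They entered the test only through RNAi libraries where they were high, so these counts depend in part on the filter.

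The germline gene vas, an RNA helicase, was like Arp53D highest outside mip40 RNAi and GFP. It stood at 0.260 and 0.441 FPKM in mip40 RNAi, 2.43 and 1.68 in mip120 RNAi, 1.90 and 2.55 in mip130 RNAi and 6.48 in E2F2 RNAi, against 0.114 and 0.0261 in GFP. It was higher than GFP by 2.81 ± 0.23 log2 units in the single E2F2 library (SE, limma adjusted p = 0.0011). That test too was entered only through libraries where vas was high. In contrast, piwi, which silences transposons, stood at 0.815 FPKM in E2F2 RNAi, against 0.585 and 0.612 in GFP, and at 6.66 and 7.13 in mip40 RNAi, 12.6 and 12.6 in mip120 RNAi and 17.2 and 19.2 in mip130 RNAi. Its highest levels were in mip130 RNAi.

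Act5C, a cytoplasmic actin on chromosome X, was among the most abundant RNAs of these cells, at rank 13 to 51 of all genes in a library. It stood at 2533 and 2105 FPKM in mip40 RNAi, 2910 and 2973 in mip120 RNAi, 2941 and 2765 in mip130 RNAi and 1976 in E2F2 RNAi, against 2134 and 2177 in GFP. All mip120 and mip130 libraries lay above both GFP libraries, the mip40 libraries lay on either side of them, and the E2F2 library was the lowest of the 9.

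Act5C rose by 0.45 ± 0.11 log2 units in mip120 RNAi (SE, limma adjusted p = 0.0187) and by 0.40 ± 0.11 in mip130 RNAi (SE, limma adjusted p = 0.0281), at group means of 2942 ± 44.7 and 2853 ± 124 FPKM against 2155 ± 30.8 in GFP (SD, n = 2 each). Its differences were 0.10 ± 0.11 in mip40 RNAi (95% interval -0.16 to 0.36, limma adjusted p = 0.612) and -0.13 ± 0.13 in E2F2 RNAi (95% interval -0.44 to 0.19, limma adjusted p = 0.570). Against the mean of the 3 mip groups, E2F2 RNAi was lower, at -0.44 ± 0.12 (SE, limma adjusted p = 0.0324), where 29.2% of all genes were called. That call held in 7 of 16 alternatives. It was lost without any 1 of the mip120, mip130 or GFP libraries (limma adjusted p between 0.0507 and 0.0738), without the filter (0.1), with the replicate block (0.0601) and with only the groups compared (0.0514). The call in mip120 RNAi was lost without the filter (limma adjusted p = 0.0718) and without any 1 of the mip120 or GFP libraries (between 0.0689 and 0.0924), and that in mip130 RNAi without any 1 of the mip120, mip130 or GFP libraries (between 0.051 and 0.134), though the sign held. The mip130 call was also lost without the filter (limma adjusted p = 0.0934), with quantile normalization (0.0512) and with the replicate block (0.0512).

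Act5C RNA came mainly from 1 of its 4 annotated models. That model, with its first exon at X:5794894-5795046, held 80.3% to 91.2% of the gene in every library. A second model from the same start held 137 to 381 FPKM, another was listed at 0 in all 9 libraries, and a model from a start 1121 bp downstream held 27.2 to 79.5 FPKM. The downstream model was highest in mip130 RNAi, at 63.5 and 79.5 FPKM, against 42.1 and 27.2 in GFP. Unlike Arp53D, no Act5C library drew mainly on another start.

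Act42A, the other cytoplasmic actin, on chromosome 2R, stood at 2832 and 2785 FPKM in mip40 RNAi, 2328 and 2441 in mip120 RNAi, 3255 and 3387 in mip130 RNAi and 3063 in E2F2 RNAi, against 3011 and 2695 in GFP. The mip120 libraries were the lowest and the mip130 libraries the highest, with the other groups between them. None of its 4 differences from GFP passed. They were -0.02 ± 0.09 log2 units in mip40 RNAi (95% interval -0.24 to 0.20, limma adjusted p = 0.922) and -0.26 ± 0.09 in mip120 RNAi (95% interval -0.48 to -0.034, limma adjusted p = 0.0716). The others were 0.22 ± 0.09 in mip130 RNAi (95% interval -0.0019 to 0.44, limma adjusted p = 0.108) and 0.11 ± 0.11 in E2F2 RNAi (95% interval -0.17 to 0.38, limma adjusted p = 0.579). These intervals are not adjusted.

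Between the knockdowns, Act42A was higher in mip130 than in mip120 RNAi by 0.48 ± 0.09 log2 units (SE, limma adjusted p = 0.0301), a comparison in which 8.32% of all genes were called. That call was lost without any 1 of the mip120 or mip130 libraries (limma adjusted p between 0.097 and 0.197). Arp53D differed the opposite way in the same comparison, and Act5C differed by -0.04 ± 0.11 (SE, limma adjusted p = 0.818). Against mip40 RNAi, where 25.5% of genes were called in mip120 and 25% in mip130 RNAi, Arp53D was the only 1 of the 4 tested genes to pass in either. Act5C (0.35 ± 0.11, SE, limma adjusted p = 0.0576) and Arp87C (-0.23 ± 0.07, SE, limma adjusted p = 0.0607) narrowly missed in mip120 RNAi. There Act5C was called with median-ratio scaling (limma adjusted p = 0.0336), quantile normalization (0.0116) and equal annotated sums (0.0109). In mip130 RNAi it was called with equal annotated sums (0.0366).

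**Figure D3:**
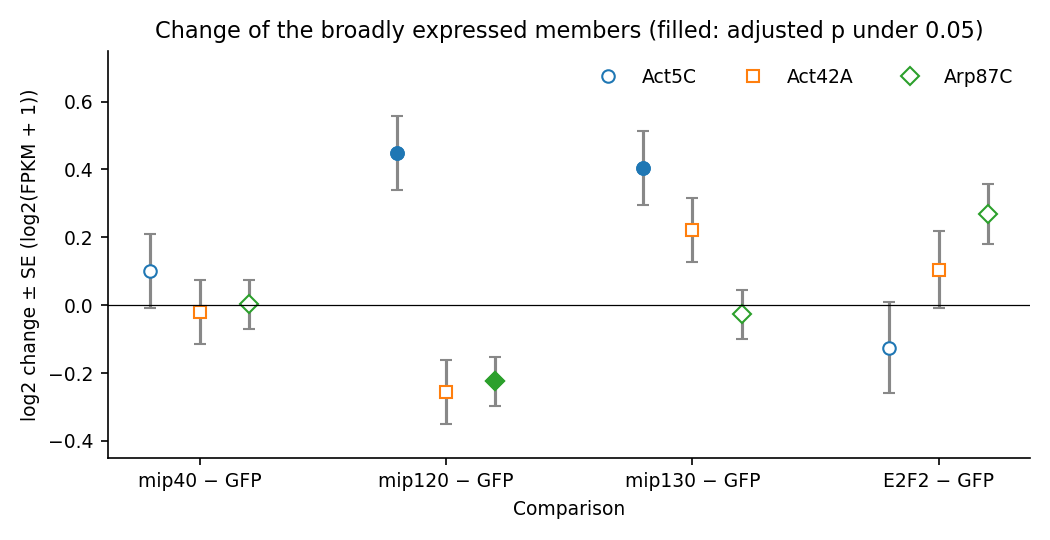
Differences from GFP on the log2(FPKM + 1) scale, with the standard error, for the 3 genes expressed in all libraries, filled where the limma adjusted p is under 0.05. Act5C is above 0 and filled in mip120 and mip130 RNAi, Arp87C is below 0 and filled in mip120 RNAi, and no Act42A point is filled.

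The cytoplasmic pair held nearly all actin RNA, and its make-up differed between groups. The share of Act5C in the summed FPKM of the 6 actins was 47.2% and 43.1% in mip40 RNAi, 55.6% and 54.9% in mip120 RNAi, 47.5% and 44.9% in mip130 RNAi and 39.2% in E2F2 RNAi, against 41.5% and 44.7% in GFP. Only in the mip120 libraries was Act5C above Act42A, at 1.25 and 1.22 times its level, and in the other 7 libraries the ratio was 0.645 to 0.904. No test was made of these shares, which rest on how reads of near-identical genes were divided.

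The summed level of the 6 actins was 5365 and 4891 FPKM in mip40 RNAi, 5239 and 5415 in mip120 RNAi, 6195 and 6153 in mip130 RNAi and 5040 in E2F2 RNAi, against 5145 and 4872 in GFP. The mip130 libraries were the highest. The sum was 0.732% to 0.979% of all annotated FPKM of a library.

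**Figure D4:**
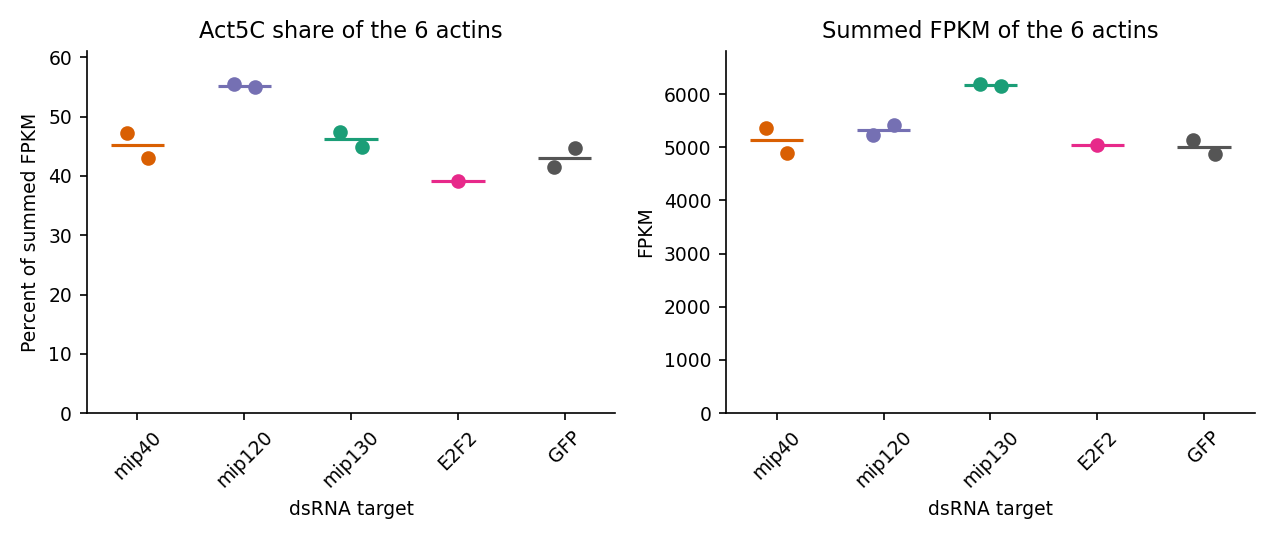
Left, the share of Act5C in the summed FPKM of the 6 actins, in percent. Right, that sum in FPKM. There is 1 point per library with a line at the group mean; the mip120 libraries have the highest Act5C share, 55.6% and 54.9%, and the mip130 libraries the highest sum, 6195 and 6153 FPKM.

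The 4 muscle actins were all under 1 FPKM in all 9 libraries and were not tested. Act57B and Act87E, used mainly in larval body muscles, reached at most 0.223 and 0.288 FPKM, Act79B, of adult tubular muscles, at most 0.119, and Act88F, of the indirect flight muscles, at most 0.0955. Act79B was listed at 0 in 7 libraries, Act88F in 6 and Act57B in 3. Together they summed to 0.322 and 0.144 FPKM in mip40 RNAi, 0.231 and 0.243 in mip120 RNAi, 0.236 and 0.285 in mip130 RNAi and 0.361 in E2F2 RNAi, against 0.210 and 0.118 in GFP.

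Without the filter on low values, Act57B was called higher in mip130 RNAi, at 0.144 and 0.223 FPKM against 0.0383 and 0 in GFP (0.21 ± 0.04 log2 units, SE, limma adjusted p = 0.023), and the muscle actins passed in no other comparison with GFP. These levels are below the 1 FPKM asked of a tested gene. Many other muscle genes, but not all, were likewise near 0. Of 24 sarcomere and muscle markers, 16 were under 1 FPKM in all libraries and 7 were at 1 FPKM or more in all. Mhc, the muscle myosin heavy chain, was at 0 to 0.0257. The 7 were Tm1, Mf, Mef2, how, Zasp52, TpnC4 and TpnC73F. Tm1, a tropomyosin, and Mf, a muscle filament protein, were the most abundant of the list, at 289 to 455 and 717 to 1092 FPKM.

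Arp87C encodes the centractin-like subunit that forms the short filament of dynactin. It stood at 94.3 and 85.0 FPKM in mip40 RNAi, 73.9 and 78.8 in mip120 RNAi, 86.2 and 89.2 in mip130 RNAi and 108 in E2F2 RNAi, against 91.6 and 87.2 in GFP. The mip120 libraries were the lowest 2 of the 9 and the E2F2 library the highest, while the mip40 and mip130 libraries overlapped GFP. It overlaps CG31347, which was at 1.01 to 2.24 FPKM, and CG14391, near 0.

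Arp87C fell by 0.22 on the log2 scale in mip120 RNAi (SE 0.07, limma adjusted p = 0.0492), a call next to the threshold that held in 5 of 16 alternatives and was lost without any 1 of the mip120, mip130 or GFP libraries (limma adjusted p between 0.0761 and 0.203). Its difference was 0.27 ± 0.09 in E2F2 RNAi (95% interval 0.058 to 0.48, not adjusted, limma adjusted p = 0.0958), 0.00 ± 0.07 in mip40 RNAi (95% interval -0.17 to 0.17) and -0.03 ± 0.07 in mip130 RNAi (95% interval -0.20 to 0.15). Against the mean of the mip groups it was higher in E2F2 RNAi by 0.35 ± 0.08 (SE, limma adjusted p = 0.0181). There Act5C, in the same comparison, was lower.

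Of the 9 other dynactin genes, limma called 0 in mip40 RNAi (1 at an unadjusted p under 0.05) and 1 higher and 2 lower in mip120 RNAi. It called 1 higher and 2 lower in mip130 RNAi, and 1 higher and 1 lower in E2F2 RNAi. The shares called over all genes were 9.2%, 36.5%, 36.2% and 12% in mip40, mip120, mip130 and E2F2 RNAi. In the same order, the median difference of the dynactin genes was 0.05, -0.13, 0.09 and 0.08 log2 units. Over all genes tested it was 0.01, -0.04, 0.01 and 0.08. CG12042, the p62 subunit, was higher in mip120 RNAi by 0.39 ± 0.06 (SE, limma adjusted p = 0.0038). The capping protein subunits cpa and cpb, shared with actin filaments, were both lower in mip130 RNAi, by -0.41 ± 0.09 and -0.85 ± 0.16 (SE, limma adjusted p = 0.0114 and 0.0081). The call of cpa was lost without any 1 of the mip130 libraries or replicate 2 of GFP (limma adjusted p between 0.0503 and 0.0667), and that of cpb without replicate 2 of mip130 RNAi (0.0543). With annotated transcripts only the difference of cpb was -0.03 (limma adjusted p = 0.886).

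Of the 7 other actin-related proteins, limma called 0 in mip40 RNAi (1 at an unadjusted p under 0.05) and 2 lower in mip120 RNAi. It called 1 lower in mip130 RNAi and 0 in E2F2 RNAi (1 at an unadjusted p under 0.05). The shares called over all genes were 9.2%, 36.5%, 36.2% and 12% in mip40, mip120, mip130 and E2F2 RNAi. Arp6, a nuclear actin-related protein of chromatin complexes, was at 91.8 and 75.5 FPKM in mip40 RNAi, 48.0 and 41.1 in mip120 RNAi, 55.5 and 56.9 in mip130 RNAi and 133 in E2F2 RNAi, against 98.2 and 93.9 in GFP. It fell by 1.09 on the log2 scale in mip120 RNAi (SE 0.11, limma adjusted p = 0.00059) and by 0.76 in mip130 RNAi (SE 0.11, limma adjusted p = 0.0031). Both calls held in all 16 alternatives. Bap55, an actin-related subunit of the BAP remodelling complex, fell by 0.44 in mip120 RNAi (SE 0.10, limma adjusted p = 0.017), a call lost without replicate 1 of mip120 RNAi or either GFP library (limma adjusted p between 0.0587 and 0.0935), and with annotated transcripts only, at -0.27 (limma adjusted p = 0.076). None of these 7 rose as Arp53D did.

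The Arp2/3 complex, which branches actin filaments, had 8 genes tested, of which 1 was higher in mip40 RNAi, 2 higher and 1 lower in mip120 RNAi, 2 higher in mip130 RNAi and 1 higher in E2F2 RNAi, where 9.2%, 36.5%, 36.2% and 12% of all genes were called. The count of 3 in mip120 RNAi was 1 without replicate 2 of mip120 RNAi or of GFP and 5 without either mip40 library, and the count of 2 in mip130 RNAi was 1 without replicate 2 of GFP. The gene called in E2F2 RNAi was Arpc5 (0.32, limma adjusted p = 0.0305), a call lost in 11 of 16 alternatives. A pair of genes, Arpc3A and Arpc3B, encodes the same subunit, and Arpc3B had the largest change of the complex. Arpc3B stood at 85.8 and 77.0 FPKM in mip40 RNAi, 78.6 and 84.1 in mip120 RNAi, 125 and 146 in mip130 RNAi and 11.7 in E2F2 RNAi, against 15.4 and 11.6 in GFP. It was high in all mip libraries, mip40 included, and at the control level in E2F2 RNAi, where Arp53D was high.

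Arpc3B rose by 2.52 ± 0.14 log2 units in mip40 RNAi (SE, limma adjusted p = 0.00011), by 2.52 ± 0.14 in mip120 RNAi (SE, limma adjusted p = 5.6e-05) and by 3.24 ± 0.14 in mip130 RNAi (SE, limma adjusted p = 2.1e-05), and these calls held in all 16 alternatives. Its partner Arpc3A stood at 46.9 and 44.6 FPKM in mip40 RNAi, 53.1 and 64.7 in mip120 RNAi, 66.4 and 59.2 in mip130 RNAi and 31.3 in E2F2 RNAi, against 43.2 and 41.3 in GFP. It was higher by 0.46 ± 0.10 in mip120 RNAi (SE, limma adjusted p = 0.0142) and by 0.56 ± 0.10 in mip130 RNAi (SE, limma adjusted p = 0.0079). The first was lost without replicate 2 of mip120 RNAi or of GFP (limma adjusted p = 0.0675 and 0.0738), and the second without replicate 2 of GFP (0.0508). In the mip libraries Arpc3B was therefore above Arpc3A, and in the E2F2 and GFP libraries below it. The other 6 subunits kept within 85.2 to 490 FPKM.

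The shares of called genes in the lists of filament regulators lay on both sides of the shares over all genes. Of 14 nucleation genes, 2 were higher and 5 lower in mip120 RNAi and 0 higher and 4 lower in mip130 RNAi. Of 16 genes of monomer binding and turnover, 1 was higher and 5 lower in mip120 RNAi, and 1 higher and 8 lower in mip130 RNAi. Of 13 crosslinkers, 1 was higher and 4 lower in mip120 and 1 higher and 3 lower in mip130 RNAi, and of 14 non-muscle myosin genes, 1 was higher and 6 lower in mip120 and 1 higher and 4 lower in mip130 RNAi. The medians of these 4 lists lay between -0.23 and -0.10 log2 units in mip120 RNAi and between -0.27 and -0.03 in mip130 RNAi, beside -0.04 and 0.01 over all genes. The nucleation, turnover, crosslinker and myosin lists had 50%, 37.5%, 38.5% and 50% of their tested genes called in mip120 RNAi, beside 36.5% of all genes. In mip130 RNAi they had 28.6%, 56.3%, 30.8% and 35.7%, beside 36.2% of all genes.

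These counts moved when 1 library was left out. In mip120 RNAi the nucleation genes called were 1, the turnover genes 3 and the crosslinkers 2 without replicate 2 of mip120 RNAi. The nucleation and turnover counts were both 3 without replicate 2 of GFP. The myosin count in mip120 RNAi was 3 without replicate 2 of GFP or any 1 mip120 or mip130 library. In mip130 RNAi the nucleation genes called were 1 and the crosslinkers 1 without replicate 1 of mip130 RNAi, and both were 2 without replicate 2 of mip130 RNAi or replicate 1 of GFP. Without replicate 2 of mip130 RNAi the turnover count was 3 and the myosin count 3. Without replicate 2 of GFP the 4 counts in mip130 RNAi were 1, 4, 2 and 3, and without replicate 1 of mip130 RNAi the myosin count was 3.

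In mip40 RNAi, where 9.2% of all genes were called, the same lists had 0, 1, 1 and 0 genes higher and 0 lower in each, where the nucleation and myosin lists had 2 and 5 genes at an unadjusted p under 0.05 in limma. In E2F2 RNAi, where 12% of all genes were called, they had 0, 1, 3 and 1 higher and 1, 2, 1 and 0 lower, and the 4 crosslinkers came to 0 without replicate 1 of GFP and 2 without replicate 2 of GFP or either mip130 library. The serum response factor gene bs and its cofactor Mrtf, which in mammals drive actin genes, were called in none of the 4 comparisons with GFP by limma, with 1 of these genes at an unadjusted p under 0.05 in mip40 and in mip120 RNAi and 0 in the others.

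**Figure D5:**
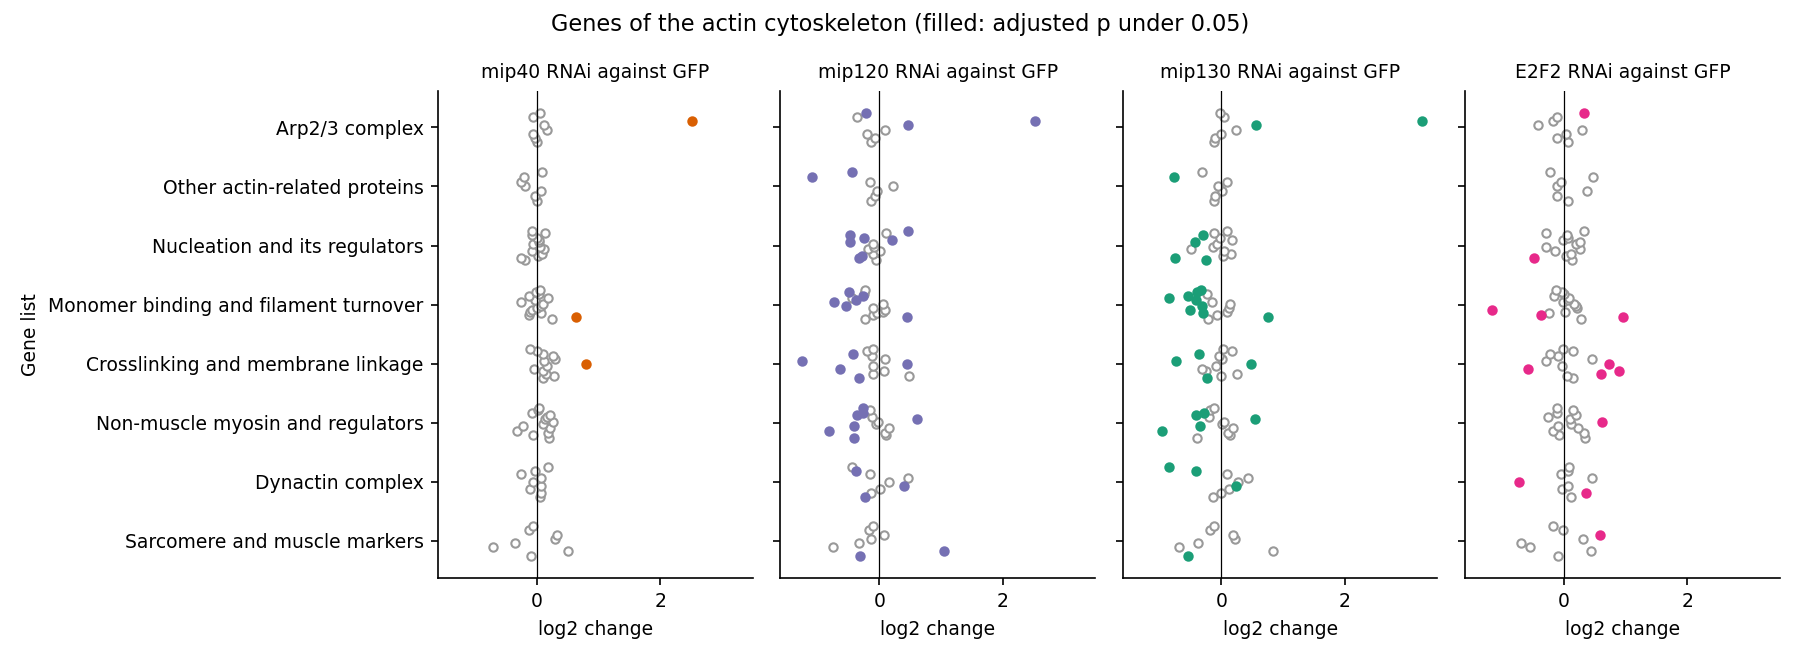
Differences from GFP, in log2 units, of the tested genes of 8 lists, 1 point per gene and 1 panel per knockdown, filled where the limma adjusted p is under 0.05. The far point of the Arp2/3 row is Arpc3B, at 2.52 in mip40, 2.52 in mip120 and 3.24 in mip130 RNAi.

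Among regulators that act on actin directly, tsr, the cofilin that severs filaments, was higher in all 4 knockdowns. It stood at 1743 and 1801 FPKM in mip40 RNAi, 1527 and 1605 in mip120 RNAi, 1912 and 1957 in mip130 RNAi and 2229 in E2F2 RNAi, against 1230 and 1059 in GFP. All RNAi libraries lay above both GFP libraries. It was higher by 0.63 ± 0.10 log2 units in mip40 RNAi (SE, limma adjusted p = 0.0101), 0.46 ± 0.10 in mip120 RNAi (SE, limma adjusted p = 0.0107), 0.76 ± 0.10 in mip130 RNAi (SE, limma adjusted p = 0.0019) and 0.97 ± 0.12 in E2F2 RNAi (SE, limma adjusted p = 0.0053). The mip40 call was lost with quantile normalization (limma adjusted p = 0.0697) and with only the groups compared (0.102), and the E2F2 call with only the groups compared (0.163). The cofilin phosphatase ssh fell by 1.16 in the E2F2 library (SE 0.14, limma adjusted p = 0.0061), at 26.2 FPKM against 56.4 and 63.2 in GFP, but differed by -0.14 with annotated transcripts only (limma adjusted p = 0.291), and was not called with only the groups compared (limma adjusted p = 0.123).

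Gel, a gelsolin, was lower in mip120 RNAi, at 135 and 134 FPKM against 236 and 212 in GFP (-0.73 ± 0.08 log2 units, SE, limma adjusted p = 0.00074). kst, the beta-heavy spectrin that links actin to the membrane, was lower in mip120 RNAi, at 18.3 and 17.2 FPKM against 39.3 and 48.4 in GFP (-1.25 ± 0.12, SE, limma adjusted p = 0.00049), and in mip130 RNAi, at 27.3 and 24.1 FPKM (-0.74 ± 0.12, SE, limma adjusted p = 0.0046). jar, the myosin that walks to the minus end of filaments, was lower in mip120 RNAi, at 18.8 and 17.3 FPKM against 31.1 and 34.1 in GFP (-0.82 ± 0.08, SE, limma adjusted p = 0.00065), and in mip130 RNAi by -0.96 ± 0.08 (SE, limma adjusted p = 0.00042). beta-Spec, the conventional beta spectrin, was higher in mip40 RNAi at 86.0 and 70.7 FPKM against 42.6 and 46.2 in GFP (0.80 ± 0.10, SE, limma adjusted p = 0.0053). That call was lost with annotated transcripts only (limma adjusted p = 0.0717) and with only the groups compared (0.0675).

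The genes most like Act5C over the 9 libraries, by Pearson's r on log2(FPKM + 1), were CG17625 (0.973), Sec61beta (0.964), or (0.964), CG18616 (0.962) and CG5569 (0.958), again with no test. Sec61beta, a subunit of the channel for secreted proteins, stood at 246 and 224 FPKM in mip40 RNAi, 302 and 324 in mip120 RNAi, 286 and 300 in mip130 RNAi and 191 in E2F2 RNAi, against 224 and 227 in GFP. Act42A was not among them, with an r of -0.20 to Act5C.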

How the data were processed

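The authors deposited FPKM values per transcript for 9 RNA libraries (oligo-dT selected, read pairs of 100 bp, per the labels' protocols). Reads were mapped and quantified with tools that include TopHat2 2.0.12, Bowtie 1.1.1, Cuffnorm and Cufflinks, per the submitters' processing notes. No source used here gives the genome build, the annotation release or the strand setting. FPKM keep no counts, so depth is unknown. Columns of group means (4) were left aside, and 9 samples of digested chromatin and 1 of naked DNA were not analysed here.

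FPKM were summed per gene over annotated transcripts (30453), new isoforms (5792) and other overlaps (176). limma 3.58.1 in R 4.3.3 was fitted to log2(FPKM + 1) over all 9 libraries in 1 model of 5 groups, with the spread allowed to trend with level and p adjusted by Benjamini-Hochberg over 7835 genes. It had 4 residual degrees of freedom, and the single E2F2 library was assumed to vary like the other groups. The script was tested on simulated data. The 95% intervals are not adjusted. RefSeq Release 6 was used only for names and neighbours. Same-numbered libraries of different groups did not deviate together, so replicate numbers were not used as a block.

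The 8 genes and the 14 gene lists were chosen with earlier results of these data known. Named genes were drawn from the 8 genes, in each list the 2 called genes with the largest change in a comparison, the 5 genes most like Arp53D and Act5C, and the 4 targets. The changes of some list genes that this rule picked, nos and Pxn among them, are not given here. Sod2, CG5538, srp, Mhc, bs, Mrtf, gdl, bol, mia, the hemocyte markers under 1 FPKM and the testis genes at 0 were added after their values were seen. So were the muscle markers Mef2, how, TpnC4 and TpnC73F. The 16 alternatives changed the pseudocount, filter, scaling, transcript classes, samples fitted and block, or left out a library.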

Additional observations from a re-analysis of the deposited data

How the results depend on the processing

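Under the 16 alternatives Arp53D kept its calls against GFP in mip130 and E2F2 RNAi. It passed the filter only through libraries where it was high, so keeping these calls adds no separate evidence. With annotated transcripts only its difference was 0.000744 in mip120 RNAi against GFP, -0.0809 in mip120 against mip40 RNAi and 2.10 in mip130 against mip120 RNAi, because that setting drops its upstream-start models. With a pseudocount of 0.1 it was 1.48 in mip40 RNAi against GFP (now called) and -0.84 in mip130 against mip120 RNAi (no longer called). With only the groups compared mip130 against mip120 RNAi gave -0.80 (not called), and leaving out 1 library gave -0.93 to -0.67.

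Leaving out 1 library gave 301 to 535 genes in mip40 RNAi against GFP (721 with all libraries), 1581 to 2857 in mip120 (2857), 1426 to 2794 in mip130 (2840), 334 to 934 in E2F2 (940), 516 to 1882 in mip120 against mip40 (2001), 198 to 1889 in mip130 against mip40 (1956) 71 to 571 in mip130 against mip120 RNAi (652) and 1700 to 2314 in E2F2 against the mip groups (2289). With only the groups compared the counts were 188 in mip40, 31 in E2F2, 1332 in mip120 against mip40, 1033 in mip130 against mip40 and 155 in mip130 against mip120. With the replicate block they were 414 in mip40, 411 in E2F2, 1272 in mip130 against mip40, 211 in mip130 against mip120 and 1472 in E2F2 against the mip groups. Same-numbered libraries correlated in their deviations at -0.13 to 0.02, so the block shares only a number. No filter gave 1292 in mip130 against mip40 and 421 in mip130 against mip120, and annotated transcripts only gave 444 in mip40.

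Of the other genes tested, differences near 0 changed sign. Leaving out 1 library gave -0.034 to 0.23 for Act5C, -0.10 to 0.060 for Act42A and -0.071 to 0.076 for Arp87C in mip40 RNAi, and for Arp87C -0.061 to 0.0086 in mip130 RNAi against GFP and -0.10 to 0.044 against mip40 RNAi. Arp87C in mip40 RNAi was -0.0054 with median-ratio scaling, -0.045 with quantile normalization and -0.084 with equal annotated sums, and 0.0092 in mip130 against mip40 RNAi with quantile normalization. Act42A in E2F2 RNAi was -0.11 with quantile normalization and -0.074 with equal sums, and against the mip groups -0.012 and -0.013. Myo95E, a myosin higher in mip120 and mip130 RNAi, was -0.041 and -0.073 with annotated transcripts only. Equal annotated sums, chosen after seeing the data, moved the median of all genes by -0.16 in E2F2 RNAi against GFP, by 0.10 in mip120 against mip40 and by -0.13 in E2F2 against the mip groups. Depth is unknown, and limits levels under 1 FPKM most.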
